A study of Mus musculus with 18 samples.

Results

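The genes described here are 9 genes of the inflammasome and of pyroptosis and necroptosis, the inflammatory forms of cell death: Nlrp3, Aim2, Pycard, Casp1, Casp4, Gsdmd, Il18, Ripk3 and Mlkl. They were chosen by name from the 50584 genes of the deposited count table, with earlier results of these data known. Counts of calls among them therefore do not test the set against all genes. All 9 passed the filter on low counts, which 16598 genes passed. RNA of whole choroid plexus, the tissue of the brain ventricles that secretes cerebrospinal fluid, was sequenced in 18 libraries of 4 groups. MRL/lpr mice, which carry the lpr allele of the death receptor gene Fas and develop a lupus-like disease, gave 6 libraries at 12 weeks of age and 6 at 16 weeks. MRL/+ mice, of the same background without that allele, gave 3 libraries at each age. No treatment is named in the labels, and both strains share the MRL background, which is itself prone to autoimmunity. The labels do not say that libraries of a group came from separate animals, so p-values measure the spread between these libraries, part of which may be technical.

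An inflammasome is a protein complex in which a sensor, such as NLRP3 or AIM2, recruits the adaptor ASC (the product of Pycard) and through it caspase-1. Caspase-1 cleaves the precursors of interleukin-1 beta and interleukin-18 and, like caspase-11 (the product of mouse Casp4), cleaves gasdermin D, whose fragment forms pores in the plasma membrane and ends in pyroptosis. Necroptosis runs through the kinase RIPK3, which phosphorylates MLKL so that it disrupts the membrane. Cleavage, phosphorylation and pore formation are protein events, and the values below are transcript levels only.

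Total counts ran from 11164284 to 14602253 per library. All 12 markers of choroid plexus epithelium were detected in every group, with summed levels of 158200 to 317300 CPM (reads of a gene per 1000000 reads of the library, scaled) in single libraries. Counts of Fas fell between 14 and 67 in the 12 MRL/lpr libraries and between 14 and 28 in the 6 MRL/+ libraries. They cover all exons of the gene, so they do not check the lpr allele. Markers of tissues outside the plexus reached summed levels of 33.1 CPM (pineal gland), 225 CPM (cerebellum), 327 CPM (skeletal muscle) and 73.9 CPM (pituitary) in single libraries. An earlier analysis of these data named 4 libraries for pineal, cerebellar or muscle transcripts, MRL/lpr 12 week replicates 1 and 4 and replicate 1 of both MRL/+ groups, and results are given with and without these 4. Libraries outside the 4 still held cerebellar sums of up to 101 CPM in MRL/lpr at 12 weeks and 106 CPM at 16 weeks, and the highest pituitary sum, so the fits without the 4 were not free of other tissues. In whole tissue, more cells of a type and more RNA per cell cannot be told apart.

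Of the 9 genes, 8 had a higher mean level in MRL/lpr than in MRL/+ choroid plexus at both ages, and Il18 was the exception at 16 weeks. With edgeR's quasi-likelihood test and Benjamini-Hochberg adjustment over all 16598 genes (threshold 0.05), 5 of the 9 rose at 12 weeks: Nlrp3, Aim2, Casp1, Casp4 and Gsdmd. Over all genes tested, 6.36% were called at that age, 5.01% higher and 1.34% lower. At 16 weeks 7 of the 9 rose, the same 5 and also Pycard and Mlkl, beside 11.1% of all genes called, 8.49% higher and 2.64% lower. None of the 9 was called lower at either age. The median log2 fold change of the 9 genes was 2.56 at 12 weeks and 3.05 at 16 weeks, against -0.01 and 0.03 over all genes tested. Every MRL/lpr library lay above every MRL/+ library of its age for 8 of the 9 genes at 12 weeks, where 8.59% of all genes did so, and for 6 of 9 at 16 weeks, where 9.91% did. Without the 4 libraries named above, 0 of the 9 were called at 12 weeks by edgeR (5 at an unadjusted p under 0.05) and 4 at 16 weeks (Aim2, Casp1, Casp4 and Gsdmd). That fit left 4 MRL/lpr and 2 MRL/+ libraries at 12 weeks, and over the whole table it called 0.204% of genes at 12 weeks and 3.01% at 16 weeks. An unadjusted p under 0.05 was reached in it by 1868 of 16701 genes at 12 weeks. DESeq2, on all 18 libraries, called 8 of the 9 at each age, where it called 8.70% of all genes at 12 weeks and 13.0% at 16 weeks. Without 1 library, the edgeR count fell to 3 of 9 at 12 weeks without MRL/+ 12 week replicate 1 or 3, and to 4 of 9 at 16 weeks without MRL/+ 16 week replicate 3. The same fits called 225, 280 and 563 genes higher over the whole table.

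**Figure D1:**
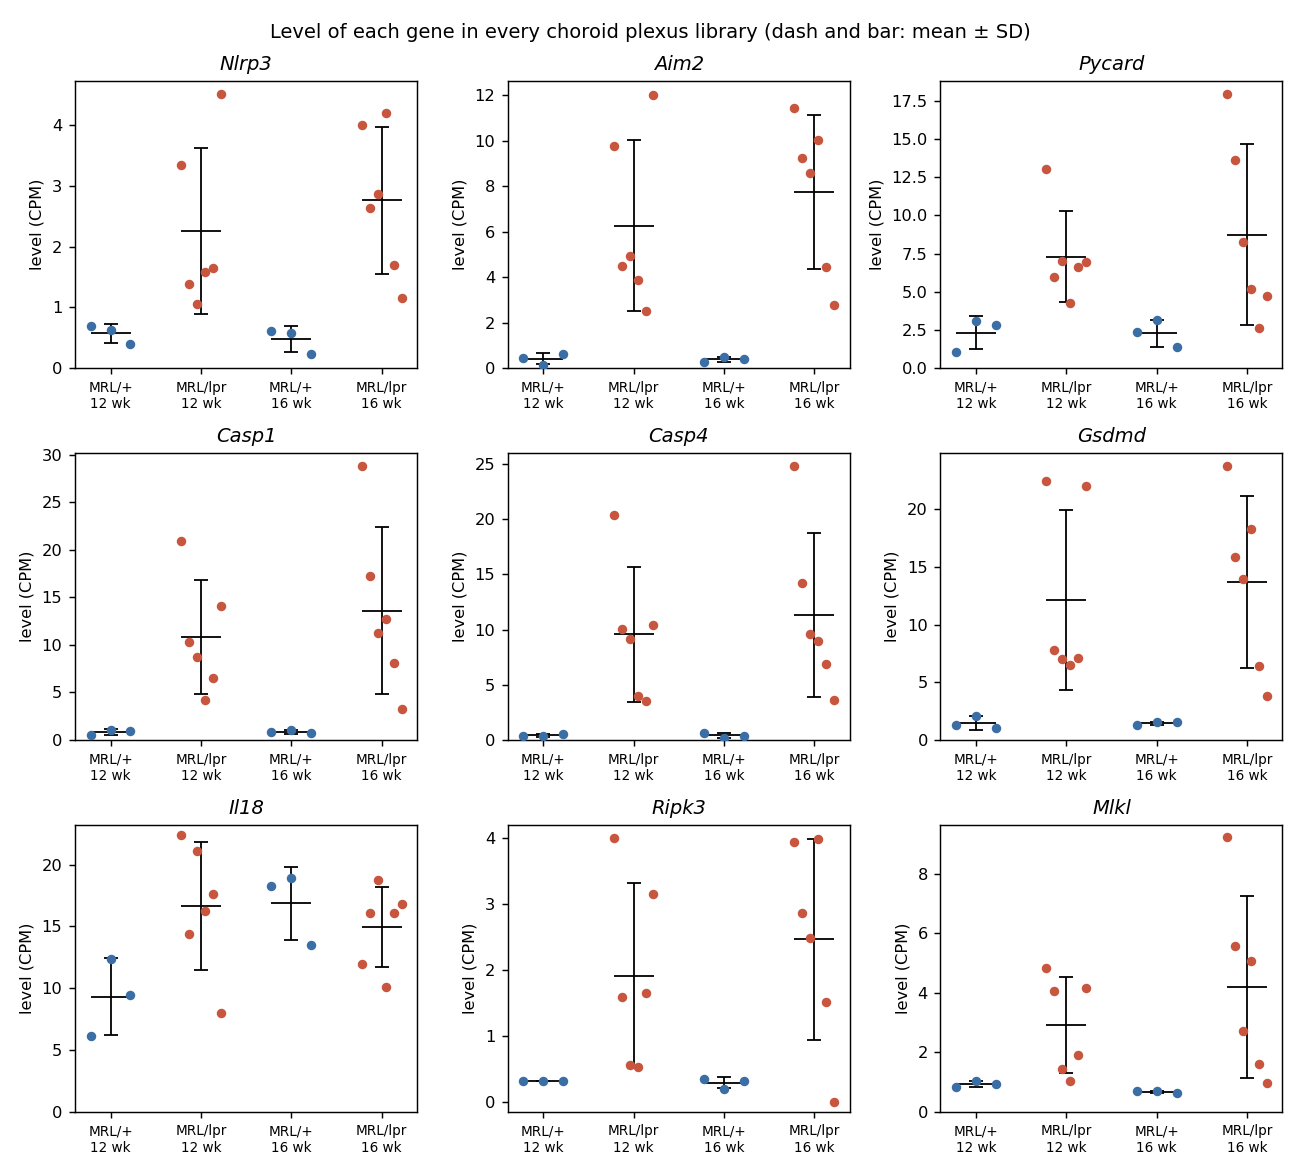
Level of each of the 9 genes in CPM (linear axis) in every library, by strain and age; points are libraries and dashes with bars are means ± SD. MRL/+ libraries sit near the bottom of every panel except that of Il18, where the strains overlap at both ages.

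**Figure D2:**
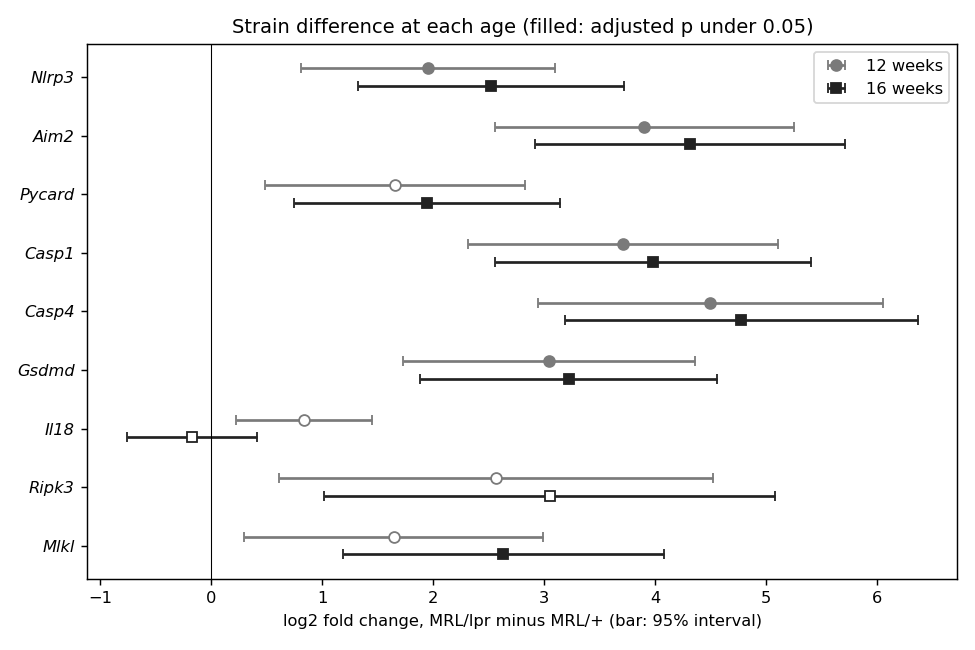
Log2 fold change of MRL/lpr minus MRL/+ for each gene at 12 weeks (circles) and 16 weeks (squares), with 95% intervals; filled symbols passed the adjusted p threshold of 0.05. Casp4 lies farthest to the right at both ages, at 4.50 and 4.77, and Il18 lies closest to 0.

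Nlrp3 (chromosome 11, 59541568 to 59566956, plus strand, GRCm38) encodes a sensor that responds to many signs of cell damage. Its level was 1.05 to 4.51 CPM in MRL/lpr at 12 weeks (median 1.62, n = 6) and 0.699, 0.627 and 0.392 CPM in the 3 MRL/+ libraries. At 16 weeks it was 1.15 to 4.20 CPM in MRL/lpr (median 2.75, n = 6) and 0.614, 0.585 and 0.239 CPM in MRL/+. All MRL/lpr libraries were above all MRL/+ libraries at both ages, and MRL/lpr 12 week replicates 1 and 6 were the high ones of their group. The log2 fold change was 1.95 (SE 0.54, edgeR adjusted p = 0.0395) at 12 weeks and 2.52 (SE 0.57, adjusted p = 0.0091) at 16 weeks. The 12 week call was lost in 9 of the 18 fits that left out 1 library: MRL/lpr 12 week replicates 1 (edgeR adjusted p = 0.0765) and 6 (0.0535), MRL/lpr 16 week replicates 2 (0.0525) and 3 (0.0571), MRL/+ 12 week replicates 1 (0.116), 2 (0.125) and 3 (0.179), and MRL/+ 16 week replicates 1 (0.0506) and 2 (0.0517). It was also lost with epithelium scaling (edgeR adjusted p = 0.142), with no filter on low counts (0.0512), with only the 2 groups compared in the fit (0.0752) and without the 4 libraries named above (log2 2.11, adjusted p = 0.249). The 16 week call was lost without MRL/+ 16 week replicate 3 (edgeR adjusted p = 0.0687) and without the 4 libraries named above (log2 fold change 2.78, adjusted p = 0.0687).

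Aim2 (chromosome 1, 173350879 to 173466040, plus strand) encodes a sensor of DNA in the cytosol and showed the second largest fold of the 9 genes at both ages. MRL/lpr libraries held 2.53 to 12.0 CPM at 12 weeks (median 4.71) and 2.79 to 11.4 CPM at 16 weeks (median 8.91). MRL/+ libraries held 0.445, 0.157 and 0.628 CPM at 12 weeks and 0.263, 0.487 and 0.399 CPM at 16 weeks, which are 2 to 8 reads each. The lowest MRL/lpr library lay above the highest MRL/+ library at both ages. Aim2 was 14.9-fold higher at 12 weeks (log2 3.90, SE 0.64, edgeR adjusted p = 0.00269) and 19.9-fold higher at 16 weeks (log2 4.31, SE 0.66, adjusted p = 0.00153). It kept its call in each of the 18 fits without 1 library at both ages, with adjusted p up to 0.0323 and 0.0208. Without the 4 libraries named above, its log2 fold change at 12 weeks was 3.95 with an edgeR adjusted p of 0.0799.

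Pycard (chromosome 7, 127989708 to 127993867, minus strand) encodes ASC, the adaptor that joins sensors to caspase-1. Levels in MRL/lpr were 4.27 to 13.0 CPM at 12 weeks (median 6.79) and 2.65 to 17.95 CPM at 16 weeks (median 6.72). MRL/+ libraries held 1.08, 3.06 and 2.82 CPM at 12 weeks and 2.37, 3.12 and 1.36 CPM at 16 weeks. The groups did not overlap at 12 weeks, and at 16 weeks MRL/lpr replicate 5, at 2.65 CPM, fell inside the MRL/+ range. The log2 fold change of 1.66 at 12 weeks (SE 0.56, 95% interval 0.48 to 2.83) did not pass the test (edgeR adjusted p = 0.0869), and that of 1.94 at 16 weeks (SE 0.57) did (adjusted p = 0.036). DESeq2 called the 12 week difference (adjusted p = 0.0192). The 16 week call was lost without MRL/lpr replicate 1 (edgeR adjusted p = 0.0638) or 2 (0.0661), without MRL/+ replicate 1 (0.123), 2 (0.0735) or 3 (0.159), with no filter on low counts (0.0511), with only the 2 groups compared in the fit (0.0815), and without the 4 libraries named above (0.113). Exons of Pycard and of Gm45205, a gene model on the opposite strand, share 485 bases in the deposited annotation, and the strand setting of the counting is not given in the sources used here.

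Casp1 (chromosome 9, 5298517 to 5307265) and Casp4 (chromosome 9, 5308828 to 5336783) are related inflammatory caspases and neighbours on the plus strand, 1562 bases apart, so the sequence before each start is shown. The first window ends at the base before the first annotated base of Casp1 and the second lies 250 bases before a RefSeq start of Casp4 (mouse reference GRCm38.p6, from RefSeq). The windows are chr9:5298267-5298516 and chr9:5308599-5308848, both on the plus strand, and the last 21 bases of the second are exonic in the deposited annotation. Capitals mark the kB motif (GGG, any 2 bases, TTTCC), a letter pattern bound by NF-kappaB factors, on either strand.
Casp1: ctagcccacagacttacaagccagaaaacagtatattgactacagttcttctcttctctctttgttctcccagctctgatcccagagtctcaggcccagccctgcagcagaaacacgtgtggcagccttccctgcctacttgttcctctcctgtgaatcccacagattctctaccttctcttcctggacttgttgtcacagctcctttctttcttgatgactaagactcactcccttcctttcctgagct
Casp4: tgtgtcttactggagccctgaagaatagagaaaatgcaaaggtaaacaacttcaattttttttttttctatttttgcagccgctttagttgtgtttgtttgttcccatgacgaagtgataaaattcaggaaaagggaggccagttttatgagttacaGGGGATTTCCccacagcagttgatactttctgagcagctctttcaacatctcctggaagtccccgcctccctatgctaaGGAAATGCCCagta

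The Casp4 window held the kB letters 93 to 84 bases before the RefSeq start on the same strand. On the opposite strand it held them 14 to 5 bases before that start, within the last 21 bases, which are exonic in the deposited annotation. The Casp1 window held none. Of all 32851 RefSeq windows of this length, 1.41% held this motif. The 2 other motifs searched on both strands, each overlapping none of these matches, were the ISRE core (GAAA, any 2 bases, GAAA) of interferon regulatory factors (in 2.98% of all windows) and the PU.1 motif GAGGAAGT (2.44%). ISRE letters were in 0 of the 10 windows that matched 8 of the 9 genes, and PU.1 letters were in 2, those of Aim2 and Pycard. The Pycard window, chr7:127993868-127994117 on the minus strand, holds them 44 to 37 bases before the start on the opposite strand, in capitals here.
Pycard: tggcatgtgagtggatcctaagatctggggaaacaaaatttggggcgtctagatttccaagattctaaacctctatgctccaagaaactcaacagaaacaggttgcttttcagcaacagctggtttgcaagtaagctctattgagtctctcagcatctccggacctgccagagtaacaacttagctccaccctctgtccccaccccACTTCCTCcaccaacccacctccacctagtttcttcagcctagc

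These motifs were chosen after the windows had been seen, and a match describes letters only. In MRL/lpr at 12 weeks Casp1 ran from 4.21 to 20.9 CPM (median 9.50) and Casp4 from 3.48 to 20.4 CPM (median 9.60). At 16 weeks the MRL/lpr ranges were 3.28 to 28.8 CPM for Casp1 (median 12.0) and 3.61 to 24.8 CPM for Casp4 (median 9.32). MRL/lpr replicate 1 was highest for both genes at both ages.

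In MRL/+, Casp1 stood at 0.509, 1.02 and 0.941 CPM at 12 weeks and at 0.789, 1.07 and 0.718 CPM at 16 weeks. Casp4 stood at 0.318, 0.392 and 0.549 CPM at 12 weeks and at 0.614, 0.195 and 0.399 CPM at 16 weeks, from 2 to 7 reads per library. For both genes the strains did not overlap at either age. Casp4 had the highest fold of the 9 genes, 22.6-fold at 12 weeks (log2 4.50, SE 0.74, edgeR adjusted p = 0.00269) and 27.4-fold at 16 weeks (log2 4.77, SE 0.75, adjusted p = 0.00156). Casp1 was 13.1-fold higher at 12 weeks (log2 3.71, SE 0.66, edgeR adjusted p = 0.00398) and 15.8-fold higher at 16 weeks (log2 3.98, SE 0.67, adjusted p = 0.00209). Both kept their calls in each of the 18 fits without 1 library, with adjusted p up to 0.0427 for Casp1 and 0.0323 for Casp4. Without the 4 libraries named above, the 12 week values were 3.37 for Casp1 (edgeR adjusted p = 0.0833) and 4.15 for Casp4 (0.0649). How reads that match related caspases were counted is not given in the sources used here, so reads could be split between them.

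Gsdmd (chromosome 15, 75862339 to 75867404, plus strand) encodes gasdermin D, the pore former of pyroptosis. MRL/lpr levels were 6.51 to 22.4 CPM at 12 weeks (median 7.45) and 3.85 to 23.8 CPM at 16 weeks (median 14.9). MRL/+ levels were 1.27, 2.12 and 1.02 CPM at 12 weeks and 1.32, 1.56 and 1.52 CPM at 16 weeks. The strains did not overlap. In MRL/lpr at 12 weeks, replicates 1 and 6 stood near 22 CPM and the other 4 stayed below 8 CPM. Gsdmd was 8.24-fold higher at 12 weeks (log2 3.04, SE 0.62, edgeR adjusted p = 0.00753) and 9.32-fold higher at 16 weeks (log2 3.22, SE 0.63, adjusted p = 0.00409). The 12 week call was lost without MRL/+ 12 week replicate 1 (edgeR adjusted p = 0.0629) or 3 (0.0599) and without the 4 libraries named above (log2 2.86, adjusted p = 0.132).

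Il18 (chromosome 9, 50554827 to 50581840, plus strand) encodes the interleukin-18 precursor, the cytokine among the 9 genes. It was 7.99 to 22.4 CPM in MRL/lpr at 12 weeks (median 16.9) and 10.1 to 18.8 CPM at 16 weeks (median 16.1). The MRL/+ libraries held 6.17, 12.4 and 9.41 CPM at 12 weeks and 18.2, 18.9 and 13.5 CPM at 16 weeks. The strains overlapped at both ages, and MRL/+ at 12 weeks was the low group. The strain difference was 0.84 on the log2 scale at 12 weeks (SE 0.29, 95% interval 0.22 to 1.45, edgeR adjusted p = 0.0979) and -0.17 at 16 weeks (SE 0.28, 95% interval -0.76 to 0.41, adjusted p = 0.686). At 12 weeks it passed the test without MRL/lpr 12 week replicate 6 (log2 0.97, edgeR adjusted p = 0.0192) and with DESeq2 (adjusted p = 0.037). The sign at 16 weeks changed when libraries were scaled to the epithelium markers, to 0.36.

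Ripk3 (chromosome 14, 55784996 to 55788857, minus strand) encodes the kinase of necroptosis and rested on few reads in MRL/+. MRL/lpr libraries held 0.526 to 4.002 CPM at 12 weeks (median 1.63) and 0 to 3.98 CPM at 16 weeks (median 2.68). The library with 0 reads was MRL/lpr 16 week replicate 6, where a count of 0 allows up to 3 counts, or 0.246 CPM, for counting error only. MRL/+ libraries held 0.318, 0.313 and 0.314 CPM at 12 weeks and 0.351, 0.195 and 0.319 CPM at 16 weeks, 2 to 5 reads each. The strains did not overlap at 12 weeks. At 16 weeks that 1 library had the lowest value, while the other 5 stood above all MRL/+ libraries. Its limit of 0.246 CPM lies above the lowest MRL/+ library, at 0.195 CPM, so its place below all of them is uncertain. The difference did not pass the test at 12 weeks (log2 2.56, SE 0.93, 95% interval 0.61 to 4.52, edgeR adjusted p = 0.112) or at 16 weeks (log2 3.05, SE 0.96, 95% interval 1.02 to 5.08, adjusted p = 0.0505). Without MRL/lpr 16 week replicate 6 it passed at 12 weeks (edgeR adjusted p = 0.0196) and at 16 weeks (log2 3.31, adjusted p = 0.00344). The 16 week value also passed without MRL/lpr 12 week replicate 1 (edgeR adjusted p = 0.0476), 3 (0.0468), 4 (0.0468) or 6 (0.0449), without MRL/lpr 16 week replicate 5 (0.0423), with median-ratio scaling (0.0495), with epithelium scaling (0.0256) and with DESeq2 (adjusted p = 0.00625). DESeq2 also called it at 12 weeks (adjusted p = 0.0314).

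Mlkl (chromosome 8, 111311797 to 111338177, minus strand) encodes the membrane-disrupting protein that RIPK3 activates. MRL/lpr levels ran from 1.05 to 4.84 CPM at 12 weeks (median 2.99) and from 0.983 to 9.23 CPM at 16 weeks (median 3.90). MRL/+ levels were 0.826, 1.02 and 0.941 CPM at 12 weeks and 0.702, 0.682 and 0.638 CPM at 16 weeks. The strains did not overlap at either age, though the lowest MRL/lpr library at 12 weeks, replicate 4, was close to the highest MRL/+ library. The log2 fold change was 1.64 at 12 weeks (SE 0.64, 95% interval 0.29 to 2.99), which did not pass (edgeR adjusted p = 0.14), and 2.63 at 16 weeks (SE 0.68), which did (adjusted p = 0.0202). The 16 week call was lost without MRL/+ 16 week replicate 1 (edgeR adjusted p = 0.0843), 2 (0.0787) or 3 (0.0938), with only the 2 groups compared in the fit (0.0538), and without the 4 libraries named above (log2 2.69, adjusted p = 0.104).

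Age made no difference that passed the test in any of the 9 genes. Between 12 and 16 weeks, log2 changes in MRL/lpr ran from -0.15 (Il18) to 0.53 (Mlkl), and 0 of the 9 were called by edgeR (0 at an unadjusted p under 0.05, and 0 by DESeq2), where 0.0361% of all genes were called. In MRL/+ the edgeR count was also 0 of 9 (1 at an unadjusted p under 0.05, and 0 by DESeq2), and 0% of all genes were called. An unadjusted p under 0.05 was reached by 1117 of all 16598 genes for age in MRL/lpr and by 2173 in MRL/+. The 1 gene of the 9 in MRL/+ was Il18, with a log2 change of 0.86 (SE 0.33, 95% interval 0.17 to 1.55, edgeR adjusted p = 0.379). Its ages did not overlap, with 3 libraries at each. How many of all genes did not overlap between the ages was not counted. The strain difference of Il18 at 16 weeks minus that at 12 weeks was -1.01 (SE 0.40, 95% interval -1.85 to -0.17, edgeR adjusted p = 0.361). No other gene of the 9 had an unadjusted p under 0.05 in this interaction, DESeq2 called 0 of them, and 0% of all genes were called. Of all 16598 genes, 2286 had an unadjusted p under 0.05 in it. For Aim2 and Casp4 the intervals of the interaction ran from -1.39 to 2.22 and from -1.81 to 2.36, so changes of more than 4-fold between the ages lie within them. Without MRL/lpr 16 week replicate 1, the age change in MRL/lpr turned negative for Pycard (-0.05), Casp4 (-0.11) and Gsdmd (-0.02), none of them called.

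To compare the genes with each other, levels were divided by exonic length (RPKM, CPM per 1000 exonic bases). This length covers all annotated exons of a gene and can exceed the length of its mRNA. It was 3800 bases for Pycard and 3710 for Casp4, against 1497 for Casp1 and 1031 for Il18. The order of the genes below depends in part on that annotation. Il18 was the highest in all 4 groups, at 16.1 ± 5.03 RPKM (SD, n = 6) in MRL/lpr and 9.04 ± 3.02 RPKM (SD, n = 3) in MRL/+ at 12 weeks. In MRL/+ it stood far above the next gene, Gsdmd, at 0.827 ± 0.323 RPKM (SD, n = 3), and in MRL/lpr it stood above the next gene, Casp1, at 7.21 ± 4.004 RPKM (SD, n = 6), in 5 of 6 libraries. Casp1 and Gsdmd (6.84 ± 4.40 RPKM) did not differ beyond their spread in MRL/lpr at 12 weeks, where Casp1 was higher in 4 of 6 libraries, and the order was the same at 16 weeks, again in 4 of 6. Gsdmd was above Casp4 in 6 of 6 MRL/lpr libraries at each age. Casp4, Pycard and Aim2 followed, at 2.59 ± 1.65, 1.92 ± 0.783 and 1.79 ± 1.07 RPKM (SD, n = 6) at 12 weeks, and neighbours among them changed places in 1 to 3 of 6 libraries over both ages. Mlkl (1.27 ± 0.705), Ripk3 (0.975 ± 0.712) and Nlrp3 (0.555 ± 0.336 RPKM, SD, n = 6) were the lowest in MRL/lpr at 12 weeks. In MRL/+ at 12 weeks the lowest were Ripk3 (0.160), Nlrp3 (0.141), Aim2 (0.117) and Casp4 (0.113 RPKM), and each of these was above the next in 2 of 3 libraries. Casp4 ranked 9 of 9 in MRL/+ and 4 of 9 in MRL/lpr at 12 weeks.

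Transcripts of leukocytes moved with these genes, Il18 excepted. The summed level of 4 genes that leukocytes share (Ptprc, Coro1a, Cd53 and Laptm5) was 111 to 370 CPM in MRL/lpr at 12 weeks and 68.8 to 557 CPM at 16 weeks. It was 15.8 to 17.96 CPM in MRL/+ at 12 weeks and 15.6 to 24.1 CPM at 16 weeks, and all 4 genes were called higher in MRL/lpr at both ages. The ratio of mean sums was 12.3 at 12 weeks and 14.5 at 16 weeks, beside fitted folds of 13.1 and 15.8 for Casp1, 22.6 and 27.4 for Casp4, 14.9 and 19.9 for Aim2, and 8.24 and 9.32 for Gsdmd. Below that ratio lay also Nlrp3 at 3.87 and 5.74, Pycard at 3.15 and 3.85, Ripk3 (log2 2.56 and 3.05) and Mlkl (log2 1.64 and 2.63). Il18 lay below it too, with a log2 strain difference of 0.84 at 12 weeks and one below 0 at 16 weeks. Of 9 macrophage markers, 6 and 8 were called higher at 12 and 16 weeks (edgeR), with summed levels of 387 to 3712 CPM in MRL/lpr and 86.9 to 167 CPM in MRL/+ libraries. All 6 T cell markers and all 5 B cell markers were called higher at both ages. T cell sums were 15.8 to 144 CPM in MRL/lpr and 0.940 to 1.56 CPM in MRL/+, and B cell sums were 3.61 to 116 CPM and 0.157 to 0.479 CPM. Cd3d, Cd3e and Ms4a1 were at 0 counts in MRL/+ at 12 weeks. None of the 3 neutrophil markers tested was called by edgeR at either age, and Ly6g was at 0 counts in both MRL/+ groups. Epithelium markers were not called at 12 weeks (0 of 12), and 2 of 12 were called lower at 16 weeks, with a ratio of mean sums of 0.705.

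Within MRL/lpr the same libraries were often high or low for leukocyte transcripts and for these genes. MRL/lpr 12 week replicate 1 had the highest leukocyte sum of its group and the highest level of 7 of the 9 genes. MRL/lpr 16 week replicate 6 had the lowest leukocyte sum of its group (68.8 CPM) and the lowest level of 7 of the 9. Per 100 CPM of the 4 leukocyte genes, Casp1 stood at 5.24 ± 1.06 CPM in MRL/lpr (SD, n = 6) and 4.87 ± 1.81 CPM in MRL/+ (SD, n = 3) at 12 weeks, and Aim2 at 2.98 ± 0.534 and 2.35 ± 1.261 CPM. The strains overlapped in this ratio for Casp1, Casp4 and Aim2 at both ages. The mean for Casp4 was higher in MRL/lpr, at 4.585 ± 1.524 against 2.454 ± 0.62 CPM at 12 weeks and 4.193 ± 1.118 against 2.105 ± 1.137 CPM at 16 weeks. At 12 weeks its lowest MRL/lpr value was 2.95 and its highest MRL/+ value 3.06 CPM. Pycard, Mlkl and Il18 lay lower in every MRL/lpr library than in any MRL/+ library of its age by this ratio: Pycard at 3.95 ± 1.38 against 13.8 ± 6.82 CPM, Mlkl at 1.42 ± 0.532 against 5.48 ± 0.894 CPM and Il18 at 10.4 ± 5.63 against 55.4 ± 21.8 CPM at 12 weeks. So did Nlrp3 and Ripk3 at 12 weeks only, and Gsdmd at 16 weeks only. The mean of the divisor itself was 12.3 times higher in MRL/lpr at 12 weeks and 14.5 times at 16 weeks. A gene of equal level in both strains would therefore also be lower by this ratio. How many of all genes lay lower in this way was not counted. The part of leukocyte number in the strain differences was not tested.

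**Figure D3:**
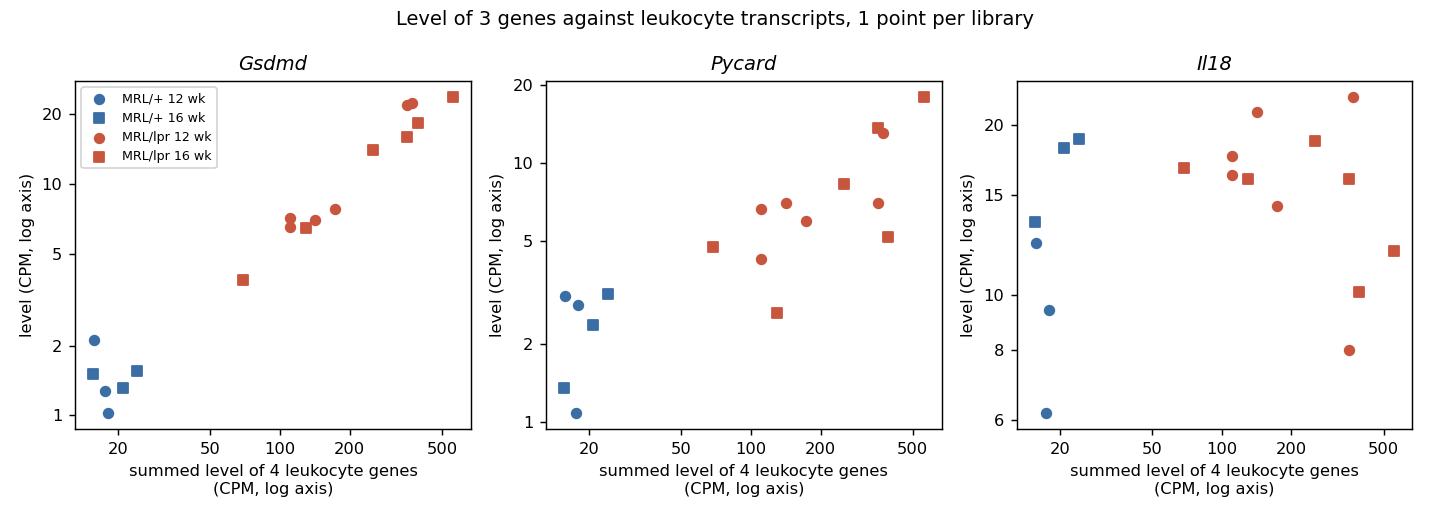
Level of Gsdmd, Pycard and Il18 (CPM, log axis) against the summed level of 4 leukocyte genes (CPM, log axis), 1 point per library, MRL/+ in blue and MRL/lpr in red. Gsdmd climbs from 1.02 to 23.8 CPM along the axis, Pycard is more scattered, and Il18 stays between 6.17 and 22.4 CPM.

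Across the 12 MRL/lpr libraries, with each age centred on its mean, the 28 pairs among the 8 genes other than Il18 had Pearson r of 0.504 to 0.952 (median 0.827). The 8 pairs with Il18 had r of -0.575 to 0.056 (median -0.376). With the log2 leukocyte sum, r was -0.417 for Il18 and 0.712 (Pycard) to 0.982 (Gsdmd) for the others. With the log2 sum of epithelium markers, r was 0.505 for Il18 and -0.651 (Nlrp3) to -0.303 (Casp4) for the others. These are descriptions without a test, and the points share library composition and depth. Among 11951 genes compared, the 9 and the pathway lists left out, Gsdmd was most like Cd2 (r = 0.996), a surface receptor of T cells, and Casp1 was most like Gbp8 (0.992), a guanylate binding protein. Nlrp3 was most like Il4ra (0.982), the interleukin-4 receptor, and Aim2 most like Grap (0.983) and Slamf6 (0.975), genes of lymphocyte signalling. Casp4 was most like Skap2 (0.977), Ctss (0.972), the lysosomal protease cathepsin S, and Cd53 (0.971), and Ripk3 most like Rab32 (0.968). Among the genes most like Mlkl were Cd274 (0.970), which encodes the immune checkpoint ligand PD-L1, and Rnf19b (0.968). Pycard had lower values, with Cks1b (0.917) the most like, and Il18 was most like Trappc4 (0.972), Cox16 (0.964) and the ribosomal protein gene Rpl34 (0.956).

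Of 71 other genes of these pathways that were listed by role, 70 were in the table and 60 were tested. That list, too, was made with earlier results of these data known, so its counts do not test it against all genes. At 12 weeks 28 of the 60 rose and 0 fell in MRL/lpr, with a median log2 fold change of 1.37, and at 16 weeks 30 rose and 0 fell, with a median of 1.68. Of all genes tested, 5.01% and 8.49% were called higher at these ages, with medians of -0.01 and 0.03. Without the 4 libraries named above these counts were 0 at 12 weeks by edgeR (32 at an unadjusted p under 0.05) and 15 at 16 weeks, where 34 and 503 of all 16701 genes tested were called. Of those 16701 genes, 1868 had an unadjusted p under 0.05 at 12 weeks. Leaving out MRL/+ 12 week replicate 1, 2 or 3 brought the 12 week count to 8, 12 or 8, and leaving out MRL/lpr 12 week replicate 1 brought it to 18. Over the whole table these fits called 225, 320, 280 and 640 genes higher at 12 weeks, against 832 with all libraries. Leaving out MRL/+ 16 week replicate 1 or 3 brought the 16 week count to 18 or 16. Those 2 fits called 679 and 563 genes higher over the whole table at 16 weeks, against 1410 with all libraries.

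Among the other sensors 4 of 7 tested rose at 12 weeks and 6 of 7 at 16 weeks. Ifi204, of the interferon-inducible family of DNA sensors, rose from 0.777 to 8.71 CPM on average between the strains at 12 weeks (log2 3.47, SE 0.67, edgeR adjusted p = 0.00549) and from 0.345 to 14.5 CPM at 16 weeks (log2 5.34, SE 0.77, adjusted p = 0.00121). Nlrc4, the sensor that works with NAIP proteins, had log2 fold changes of 3.16 (edgeR adjusted p = 0.0138) and 3.16 (0.00975), but lost its call without MRL/+ 12 week replicate 1 (0.0679), 2 (0.0839) or 3 (0.071) at 12 weeks and without MRL/+ 16 week replicate 1 (0.0535) or 3 (0.0626) at 16 weeks. Of the triggers and regulators of NLRP3, 2 of 7 rose at 12 weeks and 4 of 7 at 16 weeks. P2rx7, the receptor for extracellular ATP, had a log2 fold change of 1.49 at 12 weeks (edgeR adjusted p = 0.0637) and rose by 2.52 at 16 weeks (adjusted p = 0.0041). Its 12 week value passed without MRL/lpr 12 week replicate 5 (edgeR adjusted p = 0.0477) or MRL/lpr 16 week replicate 6 (0.0498).

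Toll-like receptors and their partners, which prime inflammasome genes, showed 3 of 8 higher at both ages. Tlr7, the endosomal receptor for single-stranded RNA, went from 1.47 CPM in MRL/+ to 8.14 CPM in MRL/lpr at 12 weeks (log2 2.47, SE 0.45, edgeR adjusted p = 0.00458) and had a log2 fold change of 2.82 at 16 weeks (adjusted p = 0.00189). Guanylate binding proteins, interferon regulatory factors and Gm12250, listed together as acting upstream of caspase-11 and AIM2 during infection, had 6 of 7 higher at both ages. These were Gbp2, Gbp3, Gbp5, Gm12250, Irf1 and Irf8. Gbp2 stood at 92.5 against 3.96 CPM at 12 weeks (log2 4.55, SE 0.74, edgeR adjusted p = 0.00269) and at 123 against 4.34 CPM at 16 weeks (log2 4.83, SE 0.76, adjusted p = 0.00156). Reads of Gbp2 and Ifi204, whose families hold close copies, could be split between genes. Of the other caspases 2 of 4 rose at each age. Casp12, a neighbour in the inflammatory caspase family, rose by 2.11 at 12 weeks (SE 0.39, edgeR adjusted p = 0.0047) and by 1.68 at 16 weeks (SE 0.38, adjusted p = 0.00952), the latter not without MRL/+ 16 week replicate 2 (0.0557) or 3 (0.0705).

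Neither Ninj1, which ruptures the membrane after pores form, nor Dfna5, the older symbol of gasdermin E, was called. Ninj1 was 99.2 CPM in MRL/lpr and 90.5 CPM in MRL/+ at 12 weeks and had a log2 fold change of 0.13 (95% interval -0.17 to 0.43, edgeR adjusted p = 0.621), and at 16 weeks one of -0.36 (95% interval -0.65 to -0.06, adjusted p = 0.109), which became 0.18 with epithelium scaling. Of the interleukin-1 and interleukin-18 ligands, antagonists and receptors, 5 of 10 rose at each age. Il18r1, a chain of the interleukin-18 receptor, had 315 reads over the 6 MRL/lpr libraries and 1 over the 3 MRL/+ libraries at 12 weeks, a depth-scaled ratio of 163 (95% counting interval 29.1 to 6473). At 16 weeks it had 375 reads against 1, a ratio of 164 (95% counting interval 29.3 to 6510). These intervals cover counting error of pooled reads only, not the spread between libraries. In the fit by library, the edgeR adjusted p of Il18r1 was 0.00347 at 12 weeks and 0.00235 at 16 weeks. Il18bp, the soluble inhibitor of interleukin-18, stood at 67.4 against 11.7 CPM at 16 weeks (log2 2.52, SE 0.55, edgeR adjusted p = 0.00759).

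Upstream of necroptosis 5 of 12 tested genes rose at 12 weeks (Birc2, Birc3, Tnf, Tnfaip3 and Zbp1) and 4 of 12 at 16 weeks (the same without Birc2). The median log2 fold change of the 12 was 0.27 and 0.18 at these ages, against -0.01 and 0.03 over all genes tested. Zbp1, a sensor of Z-form nucleic acid that engages RIPK3, stood at 15.1 against 0.142 CPM at 12 weeks (log2 6.61, SE 1.05, edgeR adjusted p = 0.00245) and at 25.7 against 0.180 CPM at 16 weeks (log2 7.12, SE 1.06, adjusted p = 0.00145). Tnfaip3, the ubiquitin editor A20, had log2 fold changes of 3.03 at 12 weeks (edgeR adjusted p = 0.0113) and 3.25 at 16 weeks (0.00562), and lost the former without MRL/+ 12 week replicate 1 (0.0679), 2 (0.055) or 3 (0.0773). Of the 3 serpin protease inhibitors listed, 1 rose at 12 weeks, Serpinb6b, and 0 at 16 weeks. The pathway genes named here were picked by the smallest p of the strain difference in these same data, up to 3 per role. They are therefore not typical of their roles. Of them, Ifi204, Tlr7, Gbp2, Il18r1 and Zbp1 kept their calls in each of the 18 fits without 1 library at both ages.

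**Figure D4:**
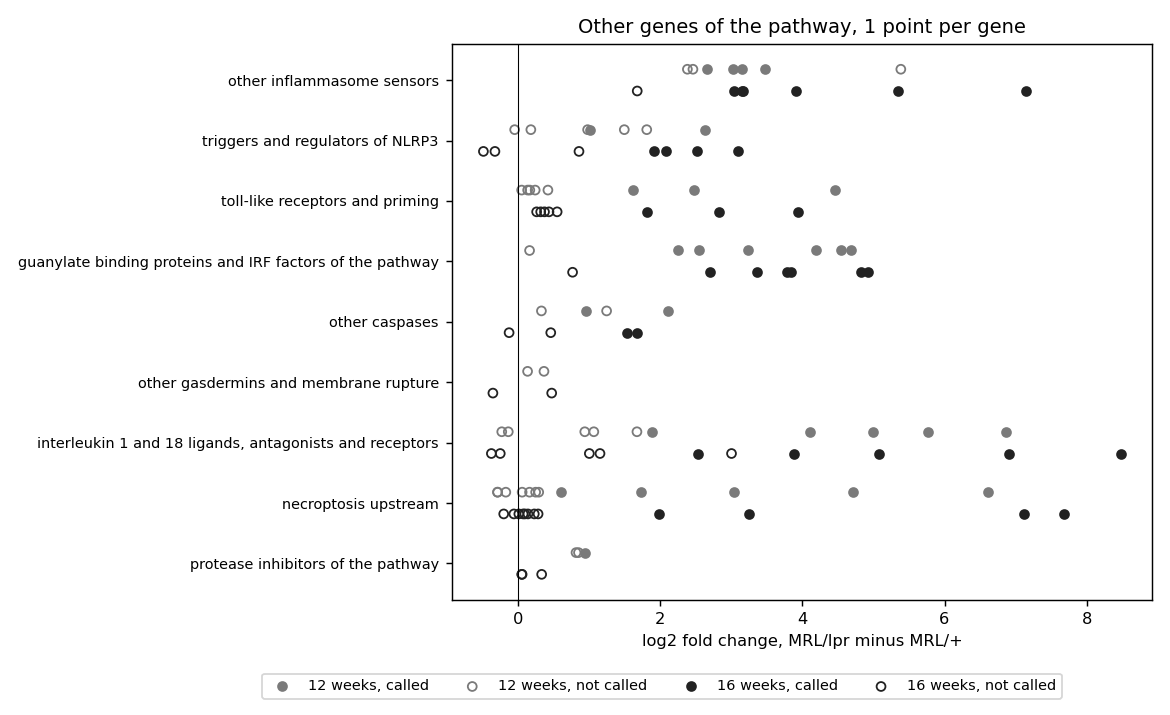
Log2 fold change of MRL/lpr minus MRL/+ for each tested pathway gene outside the 9, by role, at 12 weeks (grey) and 16 weeks (black); filled points passed the adjusted p threshold of 0.05. All filled points lie to the right of 0, 28 at 12 weeks and 30 at 16 weeks.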

How the data were processed

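Choroid plexus RNA of 18 mouse libraries was analysed from 1 deposited table of counts of reads per gene, as the authors made it. Per the labels' protocols, libraries were made with the TruSeq RNA Sample Prep Kit v2 (Illumina). Per the submitters' processing notes, STAR 2.5.3a, featureCounts 1.26.0, DESeq2 1.16.1 and the build GRCm38 were used. Not given in the sources used here are the annotation release, the strand setting and how reads with several matches were treated, which matters for overlapping and closely related genes.

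Counts were analysed with edgeR 4.0.16 in R 4.3.3: filterByExpr by group (16598 genes kept), TMM scaling, 1 mean per group in 1 robust quasi-likelihood fit of all 18 libraries, 5 contrasts, and Benjamini-Hochberg adjustment with a threshold of 0.05. CPM used TMM-scaled library sizes. Total counts were 11164284 to 14602253 per library, so the lowest genes rest on few reads. The 36 pairs of libraries within groups were checked for repeats, and the smallest chi-square per gene was 6.10. The script was tested on simulated data. Intervals are 95% and use the fit's SE.

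The genes, pathway lists and marker lists were chosen with earlier results of these data known. Named genes are the 9, up to 3 per pathway role by the smallest p, the 3 most alike per gene (prior count 2, mean log2 CPM of at least 1), Fas and the markers. Alternatives were DESeq2 1.42.0, 2 other scalings, no filter, 2-group fits, a replicate block, leaving out the 4 libraries named for other tissues' transcripts and leaving out each library. Promoter windows came from RefSeq. No protein was shown. One item is not reported here.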

Additional observations from a re-analysis of the deposited data

Results flagged for a closer look

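Pycard in MRL/lpr 12 week replicate 1 stood at 13.0 CPM, and the other 5 libraries of that group stood between 4.27 and 7.01 CPM. The gap to the nearest library was 0.686 of the group's range, above Dixon's 95% critical value for 6 libraries. Of the 18 groups of values tested this was the 1 flagged, and chance flags about 1 in 20. The same library had the highest summed leukocyte level of its group, 370 CPM, and is 1 of the 4 named for transcripts of other tissues. Their part in the value was not tested.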

How the results depend on the processing

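Casp1, Casp4 and Aim2 kept their direction and their calls at both ages in every alternative except, at 12 weeks, the one without the 4 libraries named for other tissues' transcripts. Without those 4, members called numbered 0 (12 weeks) and 4 (16 weeks), pathway genes 0 and 15, all genes higher 28 and 450, all genes lower 6 and 53, and genes called for age in MRL/lpr 0; fewer libraries were in that fit, and its other causes were not tested. DESeq2 called 8 of the 9 genes at 12 weeks, 1335 genes higher at 12 weeks, 85 for age in MRL/lpr and 9 for age in MRL/+. Of all calls, 78.9% (12 weeks) and 76.3% (16 weeks) were higher in the main analysis, and 95.6% and 98.9% with epithelium scaling, where 543 and 3266 genes were higher, 25 and 38 lower and 15 pathway genes called at 12 weeks. That scaling moved the median of all genes at 16 weeks from 0.03 to 0.59 (log2) and turned Il18 to 0.36 and Ninj1 to 0.18 at 16 weeks and the age change of Il18 in MRL/lpr to 0.17. Genes called lower at 12 weeks numbered 130 with median-ratio scaling, 61 with no filter and 85 with only the 2 groups compared, where 91.5% and 90.2% of calls were higher with the last 2; at 16 weeks no filter gave 171 lower (87.3% of calls higher). Only the 2 groups compared gave 0 genes called for age in MRL/lpr. The replicate numbers were not shown to pair libraries (21 same-number pairs, r -0.619 to 0.45, 10 of 42 best with their own number). With the replicate block, 5 and 7 of the 9 genes were called, Pycard at 12 weeks gained a call (edgeR adjusted p = 0.0357) and Nlrp3 lost it (0.0728), 212 genes were lower at 16 weeks and 1 was called for age in MRL/lpr. Without 1 library, the counts ran from 3 to 6 and 4 to 8 (the 9 genes at 12 and 16 weeks), 8 to 32 and 16 to 34 (pathway genes), 225 to 1009 and 563 to 1717 (all higher), 34 to 494 and 92 to 879 (all lower) and 1 to 9 (age in MRL/lpr). The 9 genes' lowest counts were without MRL/+ 12 week replicate 1 or 3 (3 each) and without MRL/+ 16 week replicate 3 (4). Without MRL/lpr 16 week replicate 1, the age changes in MRL/lpr reversed for Pycard (-0.050), Casp4 (-0.11) and Gsdmd (-0.025), whose highest values without 1 library were 0.51, 0.61 and 0.49. At 16 weeks, values without 1 library ran from -0.098 to 0.18 for Serpinb9 and from -0.12 to 0.19 for Serpinb1a, neither called. Aim2, Casp4 and Ripk3 had 2 to 8 reads per MRL/+ library, and at so few reads their MRL/+ levels are imprecise.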
